A study of Homo sapiens with 13 samples.

Results

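Voltage-gated calcium channels turn electrical activity into calcium entry, and 10 genes that encode their subunits were followed in small cell lung cancer (SCLC) cells treated with FHD-286. The genes were chosen by symbol, as 7 pore-forming subunits (*CACNA1A*, *CACNA1B*, *CACNA1C*, *CACNA1D*, *CACNA1E*, *CACNA1G* and *CACNA1H*), the α2δ subunits *CACNA2D1* and *CACNA2D2*, and the β subunit *CACNB3*. All 10 were found among the 56831 genes of the tables. RNA was sequenced from H82 and H146, both established SCLC cell lines that the labels give as wild type. FHD-286 is an inhibitor of SMARCA4 and SMARCA2, the ATPases of the SWI/SNF (BAF) chromatin remodelling complex, and the comparison asks which genes depend on them. H82 had 3 untreated and 3 treated libraries, and H146 had 3 untreated and 4 treated ones. Treated cells received 100 nM of FHD-286 over 14 days, with fresh drug each 48 h, and untreated cells are labelled as having received none. Each line is 1 culture model, and nothing says that the libraries came from separate cultures, so the *p* values measure the spread between these libraries, which may be technical.

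A channel of this family has 1 pore-forming subunit, which senses voltage and conducts calcium, and the pore sets its class. P/Q-type, N-type and R-type channels (*CACNA1A*, *CACNA1B* and *CACNA1E*) serve transmitter release at nerve terminals, L-type channels (*CACNA1C* and *CACNA1D*) serve contraction, hormone secretion and signalling to the nucleus, and T-type channels (*CACNA1G* and *CACNA1H*) open at small depolarizations. The α2δ and β subunits carry the pore to the membrane and tune its gating. Neuroendocrine cells use such channels for hormone secretion. In SCLC they are also known as antigens, since antibodies against P/Q-type channels cause the Lambert-Eaton myasthenic syndrome that can accompany this tumor.

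Values are TPM, transcript abundances per gene length that sum to 1000000 in each library, so levels can be set side by side between genes. Between 15554 and 21772 genes reached 1 TPM in an H82 library and between 17476 and 19309 in an H146 library. The number of reads is not part of the tables, so depth is unknown and no detection limit is given. The 8 neuroendocrine markers examined summed to between 747 and 816 TPM in untreated H82, 249 to 812 TPM in treated H82, 2741 to 3164 TPM in untreated H146 and 1602 to 2582 TPM in treated H146. Summed markers of endothelium, leukocytes and squamous or glandular epithelium were between 0.0843 and 20.2 TPM in every library. In H146 those of leukocytes summed to 6.82 to 9.96 TPM without and 9.72 to 20.2 TPM with FHD-286. Epithelial markers were there at 4.02 to 4.75 and 4.59 to 9.36 TPM, and endothelial ones at 2.05 to 2.65 and 0.308 to 0.953 TPM. In H82 leukocyte markers were at 2.92 to 7.9 TPM without and 2.34 to 4.28 TPM with the drug. The part of these markers in the results was not tested. The 6 fibroblast markers summed to between 1.7 and 2.5 TPM in untreated H82, 7.98 to 35.3 TPM in treated H82, 6.78 to 8.78 TPM in untreated H146 and 17.1 to 32.7 TPM in treated H146, and their part in the results was not tested. Mitochondrial transcripts took 22.1% to 24.1% of TPM without and 12.3% to 14.9% with FHD-286 in H82. In H146 they took 7.56% to 8.86% without the drug and 3.82% to 11.4% with it, and their part in the results was not tested either. One treated H82 library, replicate 2, stood apart. Over 95 genes that were at 50 TPM or more in every untreated H146 library and at 0.5 TPM or less in every untreated H82 library, that library summed to 838 TPM, against 136 and 73.7 TPM in the other treated H82 libraries and 8.52 to 9.55 TPM in untreated H82. Results that rest on it are given with and without it.

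In H82, 5 of the 10 genes passed the filter on low values (3 or more libraries of that line at 1 TPM or above), and 4 of these 5 were lower with FHD-286 at an adjusted *p* under 0.05 (limma on log2(TPM + 1), two-sided, Benjamini-Hochberg over all genes tested). Of all 19770 genes tested in H82, 45.5% were lower and 13.1% were higher. *CACNA1G* passed only through the untreated libraries, since each treated library was under 1 TPM, so its direction was fixed by the filter, as was that of the 3041 genes of H82 (itself included) that entered this way. None of the 5 was higher in limma, at an adjusted or an unadjusted *p* (count 0 and 0). In H146 7 genes passed, with 3 lower and 2 higher, where the shares of all 19585 genes tested were 15.5% and 32.5%. *CACNA1H* passed there only through the treated libraries, as did 1269 genes of H146 in all, so its direction was fixed likewise. In either direction the shares of all genes were 58.6% in H82 and 47.9% in H146. Counted over all 10 members, the groups did not overlap for 4 lower and 1 higher in H82 (51.4% and 16.4% of all genes tested, 67.8% in either direction) and for 3 lower and 3 higher in H146 (17.3% and 35.7%, 52.9% in either direction). These counts include members below the filter, such as *CACNA1A*, the 1 higher in H82. The shares cover only genes that passed it, so the sets are not alike. The lower genes were *CACNA1B*, *CACNA1G*, *CACNA1C* and *CACNA2D1* in H82 and *CACNA1A*, *CACNA1E* and *CACNB3* in H146, with none in both lines. The higher ones in H146 were *CACNA1H* and *CACNA2D1*, so *CACNA2D1* was called in both lines with opposite signs. The median log2 fold change of the members tested was -0.76 in H82 and -0.04 in H146, against -0.56 and 0.25 for all genes tested. Scaled by the median of ratios the medians of all genes became -0.14 and -0.02, and after quantile normalization -0.05 and 0.06. Both scalings bring libraries to a common center by construction, so they do not tell a broad change from a difference in scale, and their values are given beside each member whose call they change. The share of lower genes among all genes called was 77.7% for H82 and 32.3% for H146 as deposited, became 57.6% and 54.1% with median-of-ratios scaling, and was 52.3% and 46.9% after quantile normalization.

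**Figure D1:**
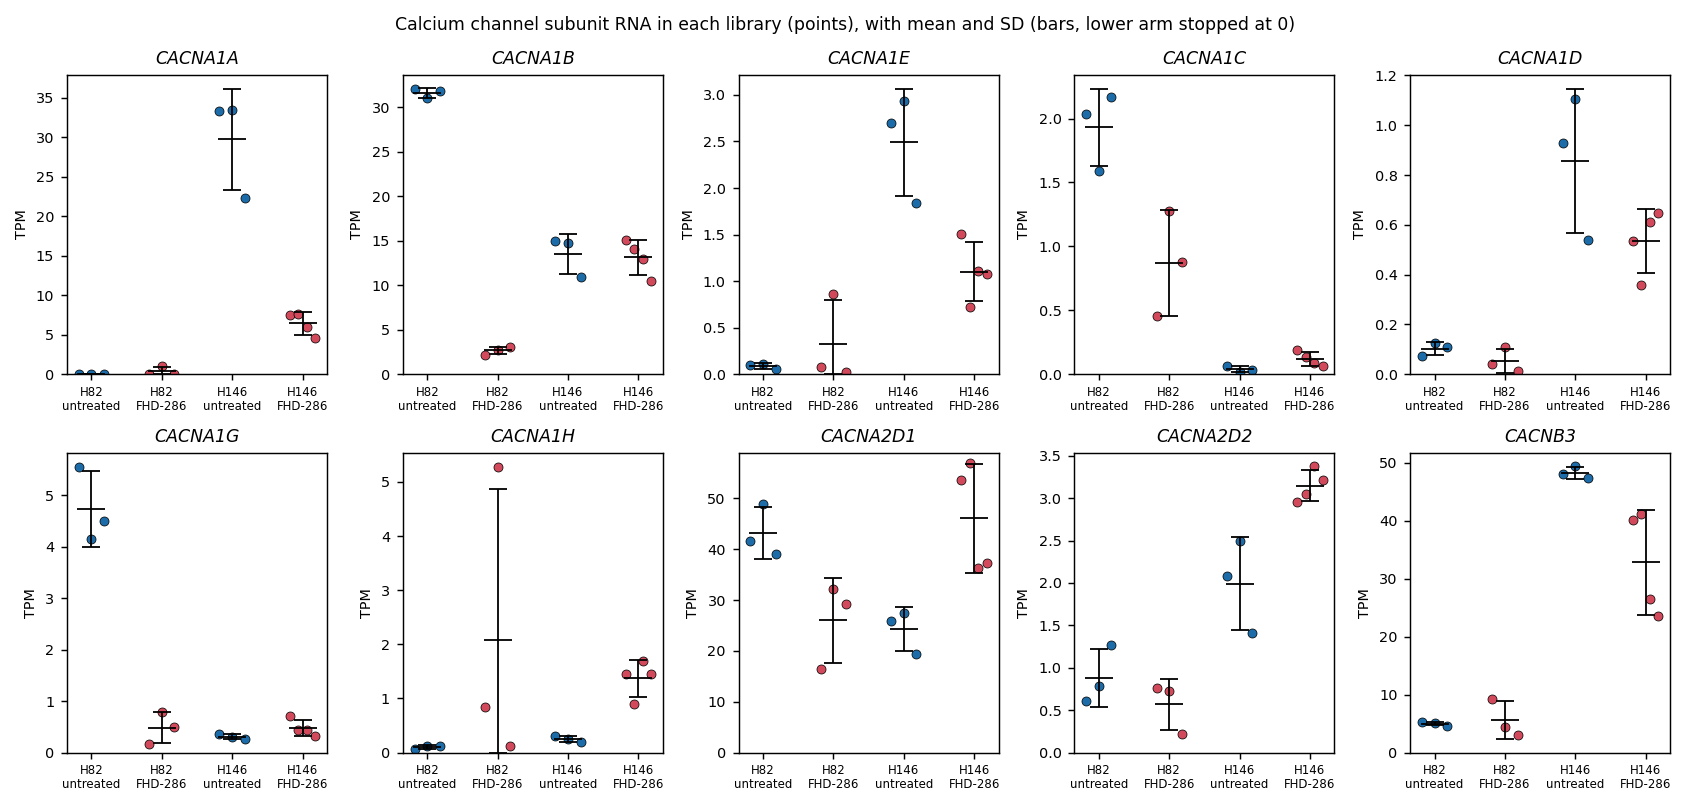
TPM of each of the 10 subunit genes in the 13 libraries (points, each panel with its own linear axis from 0), with the group mean and SD (bars, n = 3, or 4 for treated H146; the lower arm stops at 0). *CACNA1B* separates the H82 groups, at 31.0 to 32.1 TPM without and 2.21 to 3.08 TPM with FHD-286, and *CACNA1A* separates the H146 groups, at 22.3 to 33.5 and 4.61 to 7.66 TPM.

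The pores of the release channels, *CACNA1A* and *CACNA1B*, each fell in one line. Their proximal promoters are shown since each had the largest change of the 10 genes in its line on the scale of log2(TPM + 1). By the ratio of mean TPM, genes of very low level changed more. *CACNA1B* encodes the N-type pore, the target of ω-conotoxin, and lies on chromosome 9 from 137877782 to 138124624 (plus strand, ENSG00000148408.14). *CACNA1A* encodes the P/Q-type pore and lies on chromosome 19 from 13206442 to 13633025 (minus strand, ENSG00000141837.22). Coordinates of genes are from GENCODE release 44 on hg38, the build of the authors' alignment. The 250 bases before the RefSeq start site (GRCh38.p14) are at chr19:13506480-13506729 on the minus strand for *CACNA1A* and at chr9:137877532-137877781 on the plus strand for *CACNA1B*, and capitals mark E-box letters (CANNTG on either strand), the core bound by basic helix-loop-helix factors.
CACNA1A: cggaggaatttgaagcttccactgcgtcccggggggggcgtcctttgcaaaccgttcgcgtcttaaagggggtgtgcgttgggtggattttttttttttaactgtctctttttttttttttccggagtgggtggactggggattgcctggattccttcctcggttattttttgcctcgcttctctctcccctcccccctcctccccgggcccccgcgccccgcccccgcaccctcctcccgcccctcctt
CACNA1B: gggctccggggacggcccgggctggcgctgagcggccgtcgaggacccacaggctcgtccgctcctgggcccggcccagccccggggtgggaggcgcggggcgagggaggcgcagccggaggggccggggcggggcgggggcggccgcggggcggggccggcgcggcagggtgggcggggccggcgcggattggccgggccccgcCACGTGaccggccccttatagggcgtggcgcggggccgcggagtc
The *CACNA1A* window held no match and had 58.8% G and C. That window lies inside the gene span given above, so its RefSeq start is not the outer start of the GENCODE gene. Which start these cells use was not examined. The *CACNA1B* window held 1 match, CACGTG, that began 45 bases before the start site, and had 85.2% G and C. Of 35116 promoter windows of the same length, 61.8% held CANNTG, so a match is common. Over the 8 members with a RefSeq window (11 windows in all), 5 members held CANNTG. The letters CAGCTG were found in 1 of the 2 windows of *CACNA2D2* and CAGATG, as its reverse complement CATCTG, in that of *CACNA1C* (both strands were searched), against 14% and 12.2% of all windows. No accessibility or binding data were used here, and a match is a description of letters only.

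*CACNA1B* was at 32.1, 31.0 and 31.8 TPM in the untreated H82 libraries and at 2.21, 2.75 and 3.08 TPM in the treated ones. All treated values lay below all untreated ones by a wide margin, and the replicates of each group were close. In such bulk RNA, fewer cells that express a gene and less of its RNA per cell cannot be told apart. The mean went from 31.6 ± 0.557 to 2.68 ± 0.440 TPM (SD, n = 3 and 3), 11.8-fold lower on the scale of mean TPM. The log2 fold change was -3.16 (SE 0.17, limma adjusted *p* = 9.47e-05), and stayed at -2.73 with median-of-ratios scaling and -2.52 after quantile normalization (limma adjusted *p* = 0.000169 and 0.000244). In H146 the gene was at 15.0, 14.7 and 10.96 TPM without and 15.1, 14.1, 12.9 and 10.5 TPM with FHD-286. The H146 groups overlapped over nearly their whole range. The log2 fold change was -0.04 with a 95% confidence interval from -0.44 to 0.36 (limma adjusted *p* = 0.864), an interval that leaves out a change of the size seen in H82.

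*CACNA1A* was nearly silent in untreated H82, at 0.00444, 0.024 and 0.0142 TPM. Treated H82 had 0.072, 1.05 and 0.0532 TPM. Each treated value was above each untreated one, but only replicate 2, the library that stood apart, reached 1 TPM. The gene was below the filter, and the difference of mean log2(TPM + 1) was 0.38 with an exact permutation *p* of 0.1 (two-sided, the smallest that 3 against 3 libraries allow), or 0.07 without replicate 2. The level in replicate 2 was 3.55% of the mean of untreated H146, and the part of H146-type RNA in it was not tested. In H146 *CACNA1A* was at 33.3, 33.5 and 22.3 TPM without and 7.49, 7.66, 5.93 and 4.61 TPM with FHD-286. Here the groups were far apart. The mean fell from 29.7 ± 6.40 to 6.42 ± 1.44 TPM (SD, n = 3 and 4), 4.63-fold lower, with a log2 change of -2.05 (SE 0.21, limma adjusted *p* = 0.000208). It was -2.34 with median-of-ratios scaling and -2.25 after quantile normalization.

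*CACNA1E*, the R-type pore (ENSG00000198216.14, chromosome 1, 181317690 to 181813262), also fell in H146, from a lower level. In H146 it went from 2.69, 2.94 and 1.84 TPM to 1.503, 0.723, 1.10 and 1.08 TPM. The groups did not overlap, and the mean fell from 2.49 ± 0.576 to 1.10 ± 0.319 TPM (SD, n = 3 and 4), a log2 change of -0.73 (SE 0.20, limma adjusted *p* = 0.0181). The call was not reached without untreated replicate 1 or 2 (limma adjusted *p* = 0.0776 and 0.0841), while the value stayed between -0.87 and -0.64 with any 1 library left out. In H82 it was at 0.0945, 0.114 and 0.056 TPM without and 0.0785, 0.866 and 0.0279 TPM with FHD-286. The treated H82 libraries other than replicate 2 lay within or under the untreated range, and the difference of 0.23 on the log2 scale (exact permutation *p* = 0.9, two-sided) turned to -0.05 without that library.

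**Figure D2:**
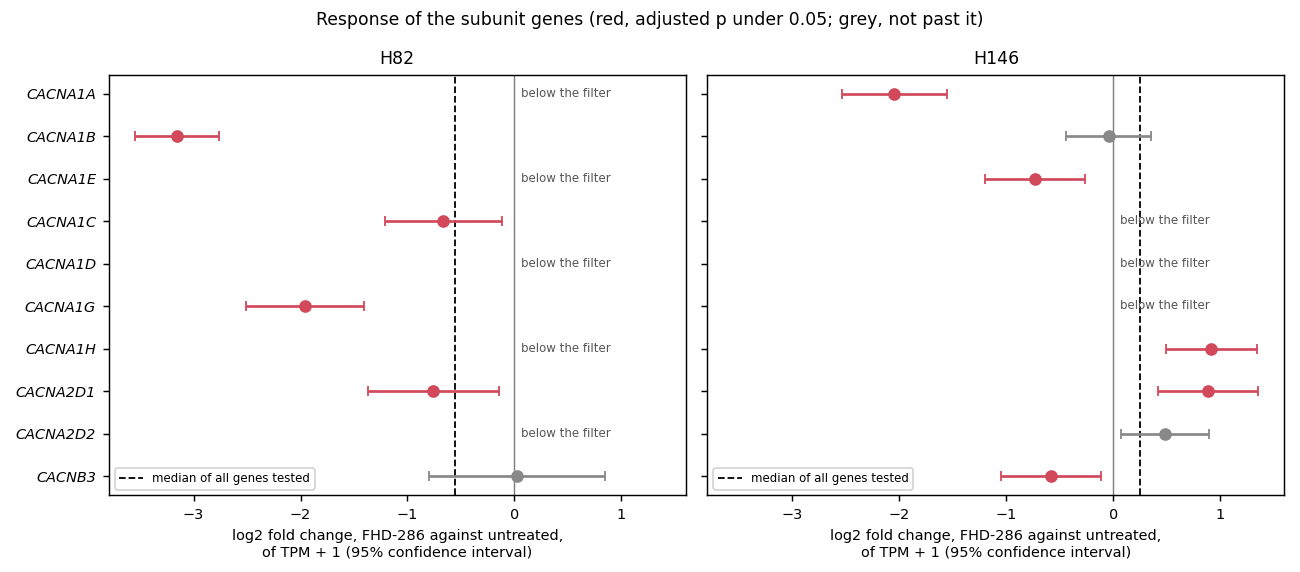
Log2 fold change of TPM + 1 with FHD-286 in each line (x axis) for the 10 subunit genes, with 95% confidence intervals from limma. Red points passed an adjusted *p* of 0.05 and the dashed line is the median of all genes tested, at -0.56 in H82 and 0.25 in H146; *CACNA1B* at -3.16 in H82 and *CACNA1A* at -2.05 in H146 lie farthest from it.

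The L-type pores *CACNA1C* and *CACNA1D* were low in both lines. *CACNA1C*, the L-type pore of heart and smooth muscle (ENSG00000151067.23, chromosome 12, 1970772 to 2697950), was at 2.04, 1.59 and 2.16 TPM in untreated H82 and at 0.457, 1.28 and 0.875 TPM in treated H82. The groups did not overlap, and the mean fell from 1.93 ± 0.303 to 0.870 ± 0.411 TPM (SD, n = 3 and 3). The log2 change of -0.67 (SE 0.23, limma adjusted *p* = 0.0416) lay only 0.11 below the median of all genes. It was not past the threshold with median-of-ratios scaling (-0.40, limma adjusted *p* = 0.184) and had the other sign after quantile normalization (0.29, limma adjusted *p* = 0.403). The call was also lost without any 1 of the untreated libraries (limma adjusted *p* from 0.113 to 0.222) or without treated replicate 1 or 3 (0.0828 and 0.0894). In H146 *CACNA1C* stayed at or under 0.19 TPM in all 7 libraries. *CACNA1D*, the L-type pore of endocrine and pacemaker cells (ENSG00000157388.20, chromosome 3, 53328963 to 53813733), stayed at or under 0.126 TPM in H82. In H146 it was at 0.928, 1.10 and 0.539 TPM without and 0.534, 0.357, 0.61 and 0.647 TPM with FHD-286. The groups overlapped, and the difference of -0.26 on the log2 scale was not past the threshold (two-sided exact permutation *p* = 0.114, where 3 against 4 libraries allow 0.0286). With median-of-ratios scaling and after quantile normalization the difference was -0.39 and -0.46, and the exact permutation *p*, unadjusted, was 0.0286 in both.

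Of the T-type pores among the 10 genes, *CACNA1G* fell in H82 and *CACNA1H* rose in H146. Each passed the filter there only through the group where it was high, so the filter fixed its direction. *CACNA1G* (ENSG00000006283.18, chromosome 17, 50560715 to 50627474) was at 5.55, 4.14 and 4.49 TPM in untreated H82 and at 0.172, 0.786 and 0.499 TPM in treated H82. The highest treated library was at less than any untreated one, and the mean fell from 4.73 ± 0.734 to 0.486 ± 0.307 TPM (SD, n = 3 and 3), 9.73-fold lower. The log2 fold change was -1.96 (SE 0.23, limma adjusted *p* = 0.000598), -1.68 with median-of-ratios scaling and -1.02 after quantile normalization (limma adjusted *p* = 0.0014 and 0.0259). In H146 it was at 0.27 to 0.358 TPM without and 0.33 to 0.702 TPM with FHD-286, below the filter, with overlapping groups and a difference of 0.16 on the log2 scale (two-sided exact permutation *p* = 0.0857).

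*CACNA1H* (ENSG00000196557.13, chromosome 16, 1153106 to 1221771) was near the bottom of the untreated order in both lines and changed in H146. There it went from 0.303, 0.245 and 0.193 TPM to 1.44, 0.891, 1.70 and 1.45 TPM. Every treated library was above every untreated one, with a mean 5.55-fold higher (0.247 ± 0.0550 to 1.37 ± 0.340 TPM, SD, n = 3 and 4). Measured as log2(TPM + 1), which understates changes of such low levels, the change was 0.92 (SE 0.19, limma adjusted *p* = 0.00468), with 0.80 and 0.74 under the 2 other scalings, both past the threshold. The gene passed the filter only through treated libraries, which fixed the direction of this change. Only 3 of the 4 treated libraries reached 1 TPM, so the gene fell below the filter when any of these 3 was left out. In H82 it was at 0.0668, 0.121 and 0.119 TPM without and 0.833, 5.27 and 0.119 TPM with FHD-286. The treated H82 libraries spread over more than the difference between the groups (1.09 on the log2 scale, or 0.38 without replicate 2; two-sided exact permutation *p* = 0.3). The 5.27 TPM of treated replicate 2 was above the highest value in any H146 library, 1.70 TPM.

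The 2 α2δ genes encode extracellular subunits that raise the amount of channel at the membrane, and both proteins bind gabapentin. *CACNA2D1* (ENSG00000153956.17, chromosome 7, 81946444 to 82443956) had the highest mean of the 10 genes over the 13 libraries, 35.7 TPM. In H82 it went from 41.5, 49.0 and 39.1 TPM to 16.5, 32.2 and 29.2 TPM. The groups did not overlap, with means of 43.2 ± 5.13 and 26.0 ± 8.36 TPM (SD, n = 3 and 3). The log2 fold change of -0.76 (SE 0.26, limma adjusted *p* = 0.0395) was 0.20 below the median of all genes, and was not past the threshold with median-of-ratios scaling (-0.28, limma adjusted *p* = 0.336) or after quantile normalization (-0.50, limma adjusted *p* = 0.0653). It was also not past it without any 1 of the untreated libraries (limma adjusted *p* from 0.082 to 0.137). In H146 it went the other way, from 26.0, 27.5 and 19.3 TPM to 53.7, 56.9, 36.3 and 37.4 TPM. All treated values lay above all untreated ones, and the mean rose 1.90-fold, from 24.2 ± 4.34 to 46.1 ± 10.8 TPM (SD, n = 3 and 4). The log2 change there was 0.89 (SE 0.21, limma adjusted *p* = 0.00835), 0.72 after quantile normalization (limma adjusted *p* = 0.0293) and 0.58 with median-of-ratios scaling (limma adjusted *p* = 0.0578), where it missed the threshold.

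*CACNA2D2* (ENSG00000007402.12, chromosome 3, 50362613 to 50504244) was lower than its paralog in every library. In H146 it was at 2.08, 2.49 and 1.41 TPM without and 2.95, 3.05, 3.38 and 3.21 TPM with FHD-286. The groups did not overlap, but the log2 fold change of 0.49 (95% confidence interval 0.07 to 0.90) missed the adjusted threshold (limma adjusted *p* = 0.0529), and the other scalings gave 0.26 and 0.22. In H82 it was at 0.607, 0.779 and 1.26 TPM without and 0.756, 0.724 and 0.222 TPM with FHD-286, with overlapping groups below the filter and a difference of -0.27 (two-sided exact permutation *p* = 0.4).

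*CACNB3* (ENSG00000167535.8, chromosome 12, 48813794 to 48828941) encodes a cytosolic β subunit that binds the pores of P/Q-, N-, R- and L-type channels and not those of T-type channels. In H146 it went from 48.0, 49.3 and 47.4 TPM to 40.1, 41.1, 26.5 and 23.5 TPM. The untreated libraries were close to each other, and the treated ones all lay under them. Treated replicates 1 and 2 lay apart from replicates 3 and 4, as they also did for *CACNA2D1*. The mean fell from 48.2 ± 0.996 to 32.8 ± 9.07 TPM (SD, n = 3 and 4), a log2 change of -0.58 (SE 0.21, limma adjusted *p* = 0.0451). The call was lost without any 1 of the untreated libraries or treated replicate 3 or 4 (limma adjusted *p* from 0.0842 to 0.115), and held under both other scalings (-0.89 and -0.73). In H82 *CACNB3* was low, at 5.23, 5.04 and 4.64 TPM without and 9.30, 4.35 and 3.05 TPM with FHD-286. The treated H82 libraries lay on both sides of the untreated ones, and the change was 0.02 (95% confidence interval -0.79 to 0.84, limma adjusted *p* = 0.958). With quantile normalization it was 0.96 (limma adjusted *p* = 0.0358), and without treated replicate 1 it was -0.36 (limma adjusted *p* = 0.15).

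**Figure D3:**
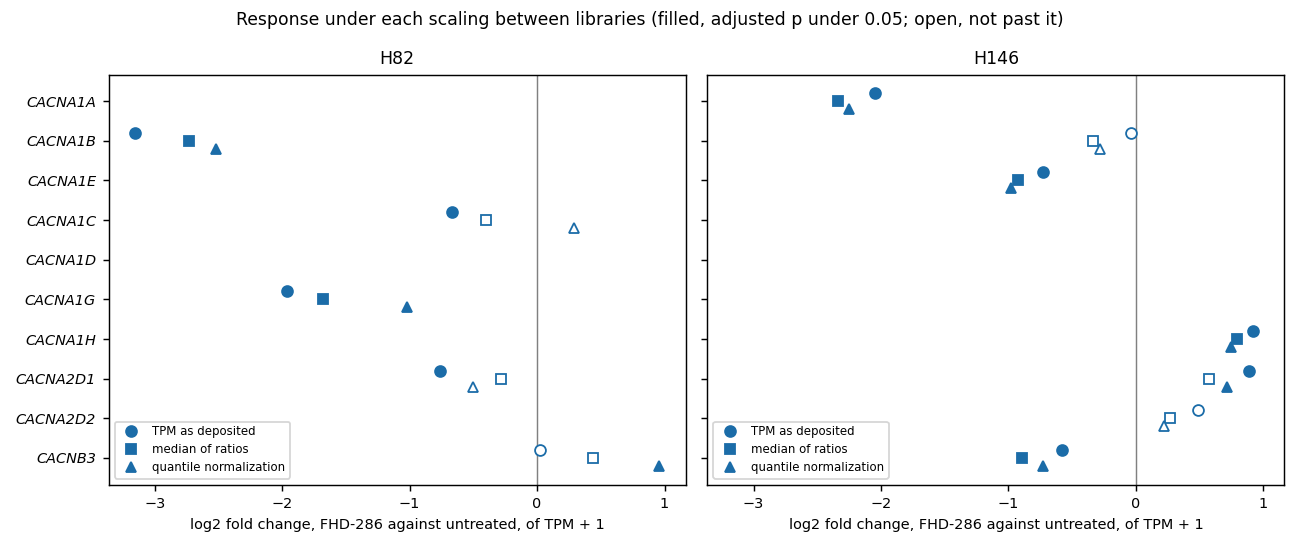
Log2 fold change of TPM + 1 with FHD-286 (x axis) for the members tested in each line, with TPM as deposited (circles), scaled by the median of ratios (squares) and after quantile normalization (triangles). Filled symbols passed an adjusted *p* of 0.05. *CACNA1B* and *CACNA1G* in H82 and *CACNA1A*, *CACNA1E*, *CACNA1H* and *CACNB3* in H146 are filled under all 3. The filter fixed the direction of *CACNA1G* in H82 and of *CACNA1H* in H146.

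The response was compared between the lines as the interaction of line and treatment over all 13 libraries, which share no controls between lines. It passed the threshold for 7 of the 9 members tested, against 60.2% of all 23676 genes tested, with 5 lower in H82 than in H146 and 2 higher (46.5% and 13.7% of all genes). For *CACNA1B* the change in H82 minus that in H146 was -3.12 on the log2 scale (SE 0.23, limma adjusted *p* = 9.02e-07), and for *CACNA1G* it was -2.12 (limma adjusted *p* = 1.89e-05). For *CACNA1A* it was 2.43 (limma adjusted *p* = 0.000164) and for *CACNA1E* 0.96 (limma adjusted *p* = 0.0193). Leaving out treated H82 replicate 2 gave 2.11 for *CACNA1A* and 0.68 for *CACNA1E* (limma adjusted *p* = 0.0002 and 0.038). A pseudocount of 0.1 ended the call of *CACNA1E* (1.71, limma adjusted *p* = 0.104). Both *CACNA1A* and *CACNA1E* were at or under 0.114 TPM in untreated H82. A gene entered this test by passing the filter in either line. *CACNA1A*, *CACNA1E*, *CACNA1H* and *CACNA2D2* were below it in H82, and *CACNA1C* and *CACNA1G* were below it in H146. Such a gene has little room to fall in the line where it is low, so the count does not show responses particular to a line. *CACNA2D1* had a difference of -1.65 (limma adjusted *p* = 0.00139), which with median-of-ratios scaling was -0.86 (limma adjusted *p* = 0.0507). *CACNA1C* (-0.77) and *CACNA2D2* (-0.76) passed as deposited, did not with median-of-ratios scaling (-0.50 and -0.32, limma adjusted *p* = 0.0795 and 0.346), and had the other sign after quantile normalization (0.29 and 0.31, neither past the threshold). *CACNB3* did not pass as deposited (0.61, limma adjusted *p* = 0.217), but did with median-of-ratios scaling (1.34, limma adjusted *p* = 0.0252) and after quantile normalization (1.73, limma adjusted *p* = 0.0034). *CACNA1H* gave 0.17 (95% confidence interval -1.15 to 1.5), or -0.54 without treated H82 replicate 2 (-1.15 to 0.08).

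Before treatment the lines already differed in 8 of the 8 members tested, against 82.1% of 21930 genes, with 4 lower and 4 higher in H82 (34.4% and 47.8% of all genes). *CACNA1A* and *CACNA1E* passed the filter here only through H146, and *CACNA1C* and *CACNA1G* only through H82. Their direction was therefore fixed by the filter. The tables of the lines were made separately, each summing to the same total, which bears on every level set across them. For *CACNA1A* the difference of mean log2(TPM + 1), H82 minus H146, was -4.90 (limma adjusted *p* = 5.5e-07), *CACNB3* had a difference of -3.05 (limma adjusted *p* = 2.18e-07) and *CACNA1E* one of -1.67. *CACNA1G* was higher in H82 by 2.12 (limma adjusted *p* = 9.56e-06), *CACNA1C* by 1.49, *CACNA1B* by 1.18 and *CACNA2D1* by 0.82. By mean TPM the order in untreated H82 was *CACNA2D1*, *CACNA1B*, *CACNB3*, *CACNA1G*, *CACNA1C*, *CACNA2D2*, *CACNA1D*, *CACNA1H*, *CACNA1E* and *CACNA1A*. The neighbours whose ranges overlapped there were *CACNB3* and *CACNA1G*, *CACNA1D* and *CACNA1H*, and *CACNA1H* and *CACNA1E*. In untreated H146 it was *CACNB3*, *CACNA1A*, *CACNA2D1*, *CACNA1B*, *CACNA1E*, *CACNA2D2*, *CACNA1D*, *CACNA1G*, *CACNA1H* and *CACNA1C*, with overlap between *CACNA1A* and *CACNA2D1*, *CACNA1E* and *CACNA2D2*, and *CACNA1G* and *CACNA1H*. With FHD-286 the first and last places were taken in H146 by *CACNA2D1* (46.1 TPM) and *CACNA1C* (0.119 TPM). In treated H82 *CACNA2D1* (26.0 TPM) stood apart from the next gene, *CACNB3* (5.57 TPM), and all other neighbours overlapped.

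The makeup of each subunit class was also compared as a share of its summed TPM within a library, which a single scaling factor per library leaves as it is (quantile normalization does not). The 10 pore genes of the tables (the 7 above with *CACNA1F*, *CACNA1I* and *CACNA1S*) summed in H82 to 148 ± 10.1 TPM without and 10.4 ± 2.91 TPM with FHD-286 (SD, n = 3 and 3), and in H146 to 52.2 ± 10.3 and 25.5 ± 4.67 TPM (SD, n = 3 and 4). In H146 the leading pore changed place. *CACNA1A* held 56.8% ± 1.27 of pore RNA without and 25.0% ± 1.36 with FHD-286, and *CACNA1B* held 26.1% ± 0.928 and 51.9% ± 2.30 (SD, n = 3 and 4). Neither pair of groups overlapped (two-sided exact permutation *p* = 0.0286 for both, the smallest possible, and 0.0571 when adjusted over the 10 members). A share rises when another falls, so these changes are not independent. In TPM *CACNA1B* was at 13.6 ± 2.26 without and 13.2 ± 1.98 with FHD-286. *CACNA1H* went from 0.474% to 5.61% of the pore RNA in H146 (exact permutation *p* = 0.0571, adjusted *p* = 0.0816). Among α2δ genes of H146, *CACNA2D1* went from 41.0% ± 2.11 to 68.8% ± 2.51 and its paralog *CACNA2D3* from 55.5% ± 2.57 to 26.0% ± 2.25 (SD, n = 3 and 4; exact permutation *p* = 0.0286 for *CACNA2D1*, adjusted *p* = 0.0571). *CACNB3* held 83.5% ± 1.01 of β RNA in untreated and 71.1% ± 5.70 in treated H146 (SD, n = 3 and 4; exact permutation *p* = 0.0571, adjusted *p* = 0.0816).

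In H82 the leading pore gene was none of the 7. *CACNA1F*, the L-type pore known from photoreceptors, held 72.7% ± 1.05 of pore RNA in untreated H82 and *CACNA1B* 21.4% ± 1.15 (SD, n = 3). With FHD-286 the share of *CACNA1F* was between 6.57% and 62.8% and that of *CACNA1B* between 20.4% and 42.1%, so the treated libraries differed among themselves and no pore led in all 3. *CACNA1H* led in treated replicate 2 with 40.2% and had 1.62% in the lowest treated library. *CACNB3* rose in share from 17.2% ± 1.31 to 34.8% ± 9.24 of the β RNA of H82 (SD, n = 3 and 3), with no overlap and an exact permutation *p* of 0.1 (two-sided, the smallest possible, and 0.167 adjusted). The summed β RNA went from 28.9 ± 1.03 to 15.4 ± 6.10 TPM, while *CACNB3* itself was at 4.97 ± 0.302 and 5.57 ± 3.30 TPM.

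**Figure D4:**
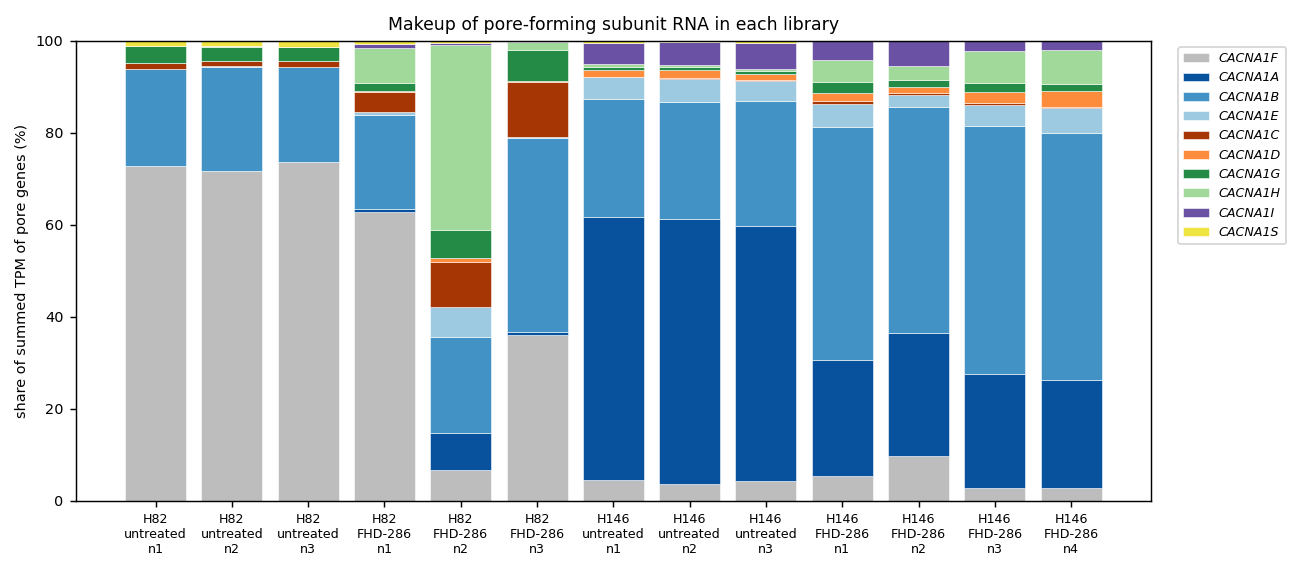
Share of each of the 10 pore-forming genes in the summed TPM of pore genes (y axis, percent) for each of the 13 libraries (bars). In H146 *CACNA1A* falls from 56.8% to 25.0% on average and *CACNA1B* goes from 26.1% to 51.9%; in untreated H82 *CACNA1F* holds 72.7%, and the 3 treated H82 libraries differ from each other.

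The other 16 genes with a subunit symbol of the family were examined in the same fits. They were taken by symbol, and whether each product is part of a calcium channel was not examined. In H82 6 passed the filter and these 6 were lower, where 45.5% of all genes were. For 3 of them, *CACNA1S*, *CACNA2D4* and *CACNG5*, every treated library was under 1 TPM, so the filter fixed their direction, and the count is no support for a change of the group. *CACNB1* was not past the threshold with median-of-ratios scaling (-0.68, limma adjusted *p* = 0.134) or after quantile normalization (-0.28, limma adjusted *p* = 0.425), and *CACNG5* was not after quantile normalization (-0.49, limma adjusted *p* = 0.0708). None was higher in limma, at an adjusted or an unadjusted *p* (0 and 0). *CACNA1F* was at 111, 98.0 and 115 TPM without FHD-286 and at 6.79, 0.861 and 2.63 TPM with it in H82, a log2 change of -4.86 (SE 0.47, limma adjusted *p* = 0.000317). Also lower in H82 were *CACNA2D4*, a retinal α2δ subunit (-1.75), the skeletal muscle pore *CACNA1S* (-1.41), the γ subunit gene *CACNG5* (-1.28), and the β subunit genes *CACNB2* (-1.21) and *CACNB1* (-1.11). In H146 9 passed, with 3 lower and 1 higher under each of the 3 scalings (15.5% and 32.5% of all genes as deposited; median -0.08). *CACNG7* passed only through treated libraries. The lower ones were *CACNG1* (-1.60), the T-type pore *CACNA1I* (-0.96) and *CACNA2D3* (-0.89), the higher one was *CACNG7* (0.92), and *CACNA1F*, *CACNB1*, *CACNB2*, *CACNG4* and *CACNG5* did not pass. *CACNG4* was the most abundant family member in H146, at 80.9 ± 17.3 TPM without and 79.8 ± 10.7 TPM with FHD-286 (SD, n = 3 and 4), with a log2 change of -0.01 (95% confidence interval -0.39 to 0.37).

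Genes around the channel were described in 3 lists, whose counts are to be read against the shares of all genes, 45.5% lower and 13.1% higher in H82 and 15.5% and 32.5% in H146. Of 18 partners and modulators of the channel 17 were found by symbol, and 12 were tested in H82 with 5 lower and 2 higher, and 13 in H146 with 4 lower and 3 higher. With median-of-ratios scaling these counts were 5 and 4 in H82 and 5 and 2 in H146, and after quantile normalization 3 and 2 in H82 and 4 and 3 in H146. The largest fall and rise in H82 were both in small GTPases that inhibit these channels by way of the β subunit. *RRAD* went from 5.61 ± 1.72 to 0.200 ± 0.215 TPM (log2 fold change -2.45, limma adjusted *p* = 0.000401), and *GEM* from 0.382 ± 0.0875 to 4.63 ± 2.42 TPM (1.95, limma adjusted *p* = 0.00184; SD, n = 3 and 3 for both). Each passed the filter through 1 group only, *RRAD* through the untreated and *GEM* through the treated libraries, so their direction was fixed. The same holds in H146 for *STAC2*, counted among the lower genes, which passed only through the untreated libraries. In H146 *RIMBP2*, which ties the channel to the release machinery, fell from 17.7 ± 3.46 to 5.18 ± 1.89 TPM (-1.63, limma adjusted *p* = 0.00131), and the calcium sensor *NCS1* rose from 21.2 ± 2.88 to 70.1 ± 20.6 TPM (1.63, limma adjusted *p* = 0.00141; SD, n = 3 and 4 for both).

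Of 21 genes for calcium release, entry and clearance, 18 were tested in H82 with 10 lower and 2 higher (median log2 fold change -0.68), and 14 in H146 with 2 lower and 5 higher (median 0.31). Median-of-ratios scaling gave 8 and 3 in H82 and 5 and 3 in H146, and quantile normalization 8 and 4 in H82 and 2 and 3 in H146. *RYR2*, a calcium release channel of the endoplasmic reticulum, fell most in H82 (-3.03, with each treated library under 1 TPM) and *ORAI1*, the pore of store-operated entry, rose most (1.22). Among the 10 lower genes of H82, *RYR1*, *RYR2* and *RYR3* passed the filter only through the untreated libraries, so their direction was fixed. In H146 *ATP2A3*, a calcium pump of the endoplasmic reticulum, fell from 559 ± 98.1 to 45.6 ± 2.27 TPM (SD, n = 3 and 4; log2 fold change -3.57, limma adjusted *p* = 2.03e-06), and *ATP2B1*, a pump of the plasma membrane, rose from 15.9 ± 2.33 to 57.1 ± 4.33 TPM (1.79, limma adjusted *p* = 4.21e-05). Of 13 calcium effectors (calmodulin kinases, calcineurin subunits and NFAT factors), 10 were tested in H82 with 3 lower and 2 higher, and 11 in H146 with 2 lower and 5 higher. The H82 counts became 1 and 3 with median-of-ratios scaling and 1 and 4 after quantile normalization, and the median log2 change of the list went from -0.15 to 0.33 and 0.36. In H146 both scalings gave 2 and 4. *NFATC3* fell most in H82 (-1.18) and *PPP3CC* rose most (1.20). *PPP3CC* was at or under 0.777 TPM in each untreated library and passed the filter only through treated ones, so its direction was fixed. In H146 *CAMK2B* fell most (-0.96) and *CAMK4* rose most (1.32).

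Over the 13 libraries and 24374 genes that reached 1 TPM in 3 or more of them, the genes whose log2(TPM + 1) was most like that of *CACNA1B* were *IGSF9B*, *RP11-423H2.3* and *AP3B2* (Pearson correlation 0.98 each). *AP3B2*, a neuronal vesicle adaptor, was at 81.5 and 6.76 TPM on average in untreated and treated H82 and at 34.0 and 25.7 TPM in H146. For *CACNA2D1* they were *SIMC1* (0.95), *RIC1* (0.94) and *MROH8* (0.94). The libraries share 2 lines and 1 treatment, and these correlations are a description with no test.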

How the data were processed

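RNA from H82 and H146 cells was sequenced by a service provider. Per the paper's methods and the submitters' processing notes, the authors mapped reads to hg38 with STAR (trimming with Trim Galore 0.4.4 is listed) and used GENCODE release 28 as gene annotation. The authors deposited 1 table of TPM per line, in which each of the 13 columns sums to 1000000. How gene length was taken, and whether counting used strand, is not given in the sources used here. Without strand, reads of *CACNA1C*, *CACNA1D*, *CACNA1H* and the other members that overlap genes of the opposite strand (8 of 10, not *CACNA1A* or *CACNB3*) cannot be told apart from reads of those genes. A spreadsheet had turned 29 symbols into dates, none of them a member.

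Each line was fitted in R 4.3.3 with limma 3.58.1 (lmFit, eBayes with trend) on log2(TPM + 1), keeping genes that reached 1 TPM in 3 or more libraries of the fit (of either line for the difference between lines), without a block. Members below the filter, and shares, were compared by an exact permutation test over libraries. Alternatives were a pseudocount of 0.1, no filter, a mean TPM above 2, the median of ratios, quantile normalization, a replicate block, eBayes with no trend, and each library left out. The ratio of mean TPM without a pseudocount, and leaving out libraries from the shares, were chosen after seeing the data. On simulated data with the H82 design limma recovered 28% and 67% of genes changed by 1 and 2 on the log2 scale (19101 genes). With the H146 design it recovered 49% and 86% (17815 genes). Only 100 genes were changed at each size, and 6 and 14 unchanged genes were called. In the data 58.6% and 47.9% of genes were called, and the adjusted threshold depends on that share. The recovered shares are therefore not the power of the actual fits. All members, all other subunits past the filter, and the largest called rise and fall of each further list are named. Members and lists were chosen with earlier results of these data known. Promoter windows are from RefSeq. Protein sequences were not used here. Python 3.11.15 with pandas 2.3.3 and matplotlib 3.10.9 prepared tables and plots. No library was identical to another.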

Additional observations from a re-analysis of the deposited data

Results flagged for a closer look

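The response to FHD-286 differed between the lines, by the interaction test, for 7 members (log2 scale, H82 minus H146). The differences were 2.43 for *CACNA1A*, -3.12 for *CACNA1B*, -0.77 for *CACNA1C*, 0.96 for *CACNA1E*, -2.12 for *CACNA1G*, -1.65 for *CACNA2D1* and -0.76 for *CACNA2D2*. Of all genes tested 60.2% passed the same test, so a flag of this kind is common in these data. *CACNA1A*, *CACNA1E* and *CACNA2D2* entered the test through H146 only, and *CACNA1C* and *CACNA1G* through H82 only. With a pseudocount of 0.1 the differences of *CACNA1E* and *CACNA2D2* did not pass (limma adjusted *p* = 0.104 and 0.0671). Leaving out treated H82 replicate 2 lowered the difference of *CACNA1E* to 0.68, which still passed (limma adjusted *p* = 0.038). Within the 4 treated H146 libraries no member had a library set apart from the others by Dixon's criterion, and groups of 3 libraries were not examined. That criterion looks for 1 library apart. It does not see a split into pairs, as *CACNB3* and *CACNA2D1* had there.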

How the results depend on the processing

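Both lines kept their leading changes. *CACNA1B* stayed lower in H82, and *CACNA1A* lower in H146, at an adjusted *p* under 0.05 in each alternative. *CACNA1G* stayed so in H82 in each limma fit that held it, but the filter had fixed its direction in the main fit. Among members, 4 were lower in H82, against 2 with no filter, 2 with median-of-ratios scaling, 2 after quantile normalization (and 1 higher there) and 1 to 4 with 1 library left out. In H146 3 were lower, against 1 with no filter, 1 with the replicate block and 1 to 3 with 1 library left out, and 2 were higher, against 1 with a mean TPM above 2, 1 with median-of-ratios scaling and 1 to 3 with 1 library left out. With 1 untreated H82 library left out, fewer genes reach the filter, and *CACNA1G* falls below it. Its difference was then between -2.03 and -1.86, with a two-sided exact permutation *p* of 0.1 in each case. Members whose response differed between lines were 7, or 3 with a mean TPM above 2, where 4 were tested. Between untreated lines 4 were lower in H82 (2 with a mean TPM above 2, 1 to 4 with 1 library left out) and 4 higher (2 to 4). For all genes, lower counts were 5547 after quantile normalization and 4291 to 9957 with 1 library left out in H82, and 4917 with median-of-ratios scaling and 1812 to 3729 in H146. Higher counts were 4793 with median-of-ratios scaling, 5067 after quantile normalization and 1676 to 3503 in H82, and 4165 with median-of-ratios scaling and 4287 to 7480 in H146. Of the 4 lists of related genes, 10 were higher in H82 with median-of-ratios scaling and 10 after quantile normalization, 3 to 7 were higher and 10 to 24 lower with 1 library left out, and 9 to 15 were higher in H146.

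Some signs turned, those of called values among them. With quantile normalization these were, in H82, *CACNA1C* (0.29), *CACNA1D* (0.21) and *CACNA2D2* (0.49), and, as differences between lines, *CACNA1C* (0.29) and *CACNA2D2* (0.31). With 1 library left out, *CACNA1E* in H82 ranged from -0.047 to 0.38, *CACNB3* in H82 from -0.36 to 0.32, *CACNA1B* in H146 from -0.18 to 0.056, and the difference between lines of *CACNA1H* from -0.54 to 0.71. The change in the share of *CACNA1B* in H82 ranged from -0.690 to 10.1 percentage points, that of *CACNA2D2* in H82 from -0.425 to 1.28, and that of *CACNA1E* in H146 from -0.692 to 0.300. The cause was not tested. Same-numbered libraries did not deviate together (correlations of -0.04 to 0.03 in H82 and -0.11 to 0.01 in H146), so the numbers were not taken as pairs. With the replicate block, in which treated replicate 4 of H146 has no partner and drops out, 8625 genes were lower and 2333 higher in H82 and 2377 and 4749 in H146, and *CACNA1B* in H146 was at 0.056. The block ended the calls of *CACNA1C* in H82 (limma adjusted *p* = 0.0837) and of *CACNA1E* and *CACNB3* in H146 (0.0673 and 0.107). Depth is not known.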
